A study of Equus caballus with 24 samples.

Results

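The pituitary pieces rich in hormone RNA were compared between juvenile and adult horses. A pituitary library was counted as hormone-rich when the gene of growth hormone, GH, held more than 1000 CPM (reads on a gene per 1000000 reads of the library), and 7 of the 12 pituitary libraries, out of 24 libraries in all, met this rule. The members were thus selected on the measured level of GH. They were all 3 libraries of the juvenile Debao pony (DP) pituitary (DPPJ), 2 of the 3 adult DP libraries (DPPA replicates 2 and 3) and 2 of the 3 libraries of the adult Mongolian horse (MH) pituitary (MHPA replicates 2 and 3). Each library was RNA of the gland of 1 healthy female taken at slaughter, after removal of ribosomal RNA. The labels give the age only as juvenile or adult. The study lists ages in years for the animals whose height it measured, without stating which library each gave. Since the juveniles were all DPs, a small pony breed, while the adults were 2 DPs and 2 MHs, a taller breed, each leading count is also given with breed as a term, where juvenile DPs are set against adult DPs. None of the juvenile MH libraries met the rule. The 7 libraries held 14238026 to 23573036 reads on genes, with 18269442 to 21048794 in the juveniles, 19413767 to 23573036 in the adult DPs and 14238026 to 14443142 in the adult MHs.

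The anterior lobe of the pituitary holds hormone-secreting cell types, each named for what it makes. Somatotrophs make growth hormone, lactotrophs prolactin, corticotrophs the precursor POMC, gonadotrophs the follicle-stimulating and luteinizing hormones, and thyrotrophs thyrotropin. Melanotrophs of the intermediate lobe also make POMC, and the posterior lobe is nervous tissue with glia and axon endings from the hypothalamus. Hypothalamic factors set hormone release and in young animals growth hormone and the IGF axis drive growth of the skeleton.

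GH chose the libraries, so its level is a description with no test. It held 13202, 17908 and 23473 CPM of all reads in the DPPJ libraries. The adults held 9823 and 7608 CPM in DPPA and 6723 and 13844 CPM in MHPA. The lowest library inside the rule thus had 6723 CPM and the highest one outside it, DPPA replicate 1, had 6.56 CPM. The other hormone genes of the pituitary were detected in each of the 7 libraries.

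From here on, CPM are scaled by TMM, which corrects for differences in library composition. By the edgeR quasi-likelihood test, 14611 genes were tested between the stages and 347 were differentially expressed genes (DEGs), which is 2.37% of those tested. A DEG here changed more than 2-fold at an unadjusted P below 0.05, the threshold of the study's methods. Of these, 157 were higher in juveniles (1.07%) and 190 were lower (1.3%). No gene passed an adjusted p of 0.05 in this test, where the lowest was 0.202, while 1085 genes (7.43%) had an unadjusted P under 0.05. DESeq2 gave 54 genes with an adjusted p under 0.05 and edgeR's exact test gave 36. "Higher" and "lower" below therefore refer to calls by the unadjusted P.

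With breed as a term, the DEGs numbered 453 (3.1%), 196 of them higher in juveniles (1.34%) and 257 lower (1.76%), and none had an adjusted p under 0.05 (lowest 0.0598, edgeR, with 2294 genes at an unadjusted P under 0.05). Both fits called 190 genes in the same direction (1.3%), 63 of them higher (0.431%) and 127 lower (0.869%). For 1158 genes the levels of the juveniles and of the adults did not overlap (7.93%), with 579 in each direction (3.96%). With 1 library left out in turn, the number of genes called higher was lowest without DPPJ replicate 2. Without it 91 were higher and 202 lower, and 164 of the 347 DEGs were called again. Without DPPJ replicate 1 the genes called higher were 248, without DPPJ replicate 3 those called lower were 112, and without MHPA replicate 2 those called lower were 116.

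Of the 6 hormone genes tested besides GH, 4 had positive log2 fold changes (47.8% of all tested genes did). Among the 6, FSHB was a DEG, higher in juveniles (1.07% of all tested genes were). FSHB (ENSECAG00000019116), the beta subunit of follicle-stimulating hormone, had 373, 226 and 338 CPM in the DPPJ libraries. It had 100.1 and 54.9 CPM in DPPA and 267 and 100.5 CPM in MHPA. The adult DPs lay below all juveniles, while MHPA replicate 2 lay above DPPJ replicate 2. Its log2 fold change was 1.26 (SE 0.45, edgeR, adjusted p = 0.615), a 2.39-fold higher level. It was not called without DPPJ replicate 1 (1.11), DPPJ replicate 3 (1.20) or DPPA replicate 2 (1.15). Juvenile DPs stood above adult DPs by 2.01 on the log2 scale with breed as a term.

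PRL, which encodes prolactin, had 16062.5, 10904 and 7878 CPM in DPPJ. The adult DPs had 3231 and 1847 CPM, and the adult MHs had 2789.9 and 13191 CPM. A single adult, MHPA replicate 3, thus reached the juvenile range. The log2 fold change was 1.14 (SE 0.63), which was not called. With breed as a term it was 2.19 and PRL was a DEG, and it was also called without MHPA replicate 3, at 2.16.

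LHB, the beta subunit of luteinizing hormone, had a log2 fold change of 1.14 (SE 0.53), and CGA, the alpha subunit that both gonadotropins share with thyrotropin, had 0.71 (SE 0.35). Neither was called. POMC, the precursor of ACTH and MSH, spread widely within both stages, with 7349, 3045 and 1520.4 CPM in DPPJ. Its adult levels were 12158 and 2415 CPM in DPPA and 9547 and 2223 CPM in MHPA. Its log2 fold change of -0.73 (SE 0.71) was smaller than 2 SEs, as was that of TSHB, the thyrotropin beta subunit, at -1.21 (SE 0.91). Per gene length, the mean levels in RPKM in the juveniles ran from GH (17855) over PRL (10069), POMC (8310) and CGA (6615) to FSHB (462), LHB (122) and TSHB (11.8). In the adults POMC came first, at 13904 RPKM, before GH at 9574, PRL at 4759 and CGA at 4145. In both stages neighbours among POMC, GH, PRL and CGA overlapped between libraries, and in the adults so did LHB with FSHB and with TSHB.

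**Figure D1:**
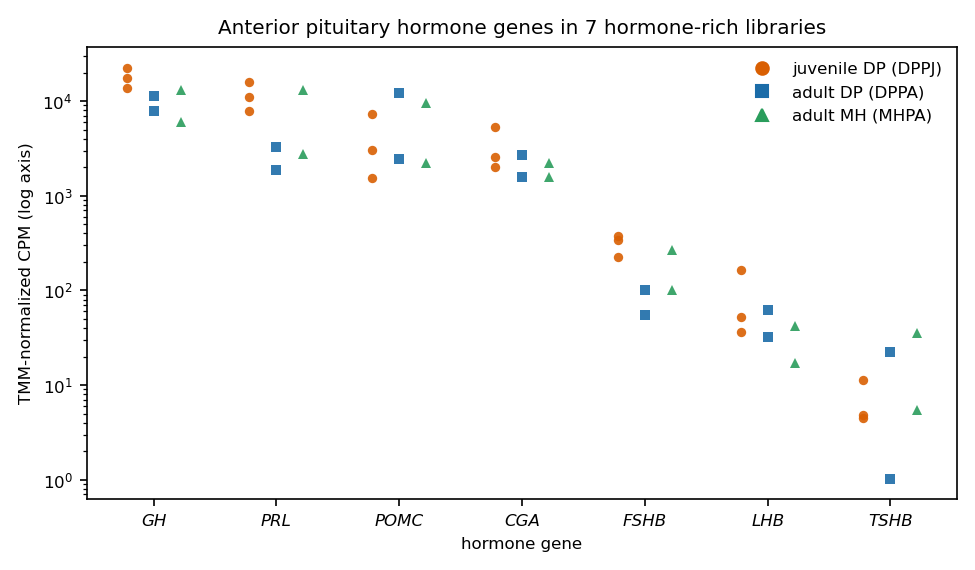
The TMM-normalized CPM of 7 hormone genes on a log axis, with 1 point for each of the 3 juvenile DP, 2 adult DP and 2 adult MH libraries. FSHB and PRL of the juveniles lie above the adult DPs, and 1 adult MH library lies within the juvenile range for each of these genes.

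The 30 genes described next are the 15 in each direction with the lowest P among the DEGs that had a symbol, did not overlap between the stages, kept P under 0.05 in the same direction with breed as a term and had a mean of at least 5 CPM in the higher group. Those conditions were met by 18 genes that were higher and 37 that were lower in juveniles. Their log2 fold changes ran from 1.03 to 5.74 in the first set and from -3.47 to -1.10 in the second. Since they were chosen for low P and no overlap, these values describe them and are no further evidence.

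GRB14 (ENSECAG00000021078) had the lowest P of all tested genes. It encodes an adaptor protein that binds the activated insulin receptor and restrains its signal. The DPPJ libraries held 88.0, 61.9 and 85.8 CPM, the adult DPs 30.9 and 35.3 CPM and the adult MHs 33.2 and 34.3 CPM. Every juvenile library was well above every adult one, and the adults of both breeds lay close together. The mean was 78.5 ± 14.5 CPM (SD, n = 3) against 33.4 ± 1.89 CPM (SD, n = 4). The log2 fold change was 1.23 (SE 0.15, edgeR, adjusted p = 0.202), a 2.35-fold higher level. The adjusted p of this gene was 4.8e-08 from DESeq2 and 5.01e-07 from edgeR's exact test, and over all 20 alternatives it ran up to 0.977, from the fit of all 12 pituitary libraries. GRB14 was a DEG in the same direction in all 20.

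Next among those higher in juveniles were genes of enzymes and transporters. IYD (ENSECAG00000018766), which recovers iodide from iodinated tyrosines, had 11.02, 8.61 and 15.3 CPM in DPPJ. It had 1.87 and 3.70 CPM in DPPA and 2.38 and 4.01 CPM in MHPA. All juveniles were above all adults, with a 3.9-fold difference (log2 fold change 1.96, SE 0.34). The carboxypeptidase M gene, whose product trims basic residues from the ends of peptides at the cell surface, was 2.54-fold higher, with a narrow spread of 11.4 ± 1.37 CPM (SD, n = 3) against 4.49 ± 0.369 CPM (SD, n = 4).

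AMZ1 (ENSECAG00000021322), which encodes a metalloprotease, also parted the adults by breed. It had 7.33, 6.73 and 12.8 CPM in DPPJ. The adult MHs had 1.25 and 1.61 CPM, and the adult DPs had only 2 and 3 reads. The order was thus juvenile DPs, adult MHs and adult DPs, with no overlap. The log2 fold change over all adults was 3.56 (SE 0.77). SLC35D2, a transporter of nucleotide sugars into the Golgi, was 2.04-fold higher (17.8, 22.7 and 38.4 CPM in DPPJ and 11.9 to 13.4 CPM in the adults), and without DPPJ replicate 3, the highest library, its log2 fold change fell to 0.65. PEX11G, a peroxisomal membrane protein, was 2.16-fold higher but was not called with breed as a term. C19orf45 was 2.2-fold higher and the calcium-binding S100A2 was 2.3-fold higher.

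A few names in this set carry limits of their own. SPI2, listed as alpha-1-antitrypsin, and RPL3L, a relative of the ribosomal protein gene RPL3, have close copies in the genome, and the 5.8S ribosomal RNA is a multicopy gene in libraries from which ribosomal RNA was removed. Their log2 fold changes of 1.45 (SE 0.40), 1.18 (SE 0.30) and 1.17 (SE 0.30) are therefore uncertain, since the way reads were split among copies is not given in the sources used here.

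TTR, the carrier of thyroid hormone and retinol, and ITIH1, an inhibitor that binds hyaluronan, rested largely on DPPJ replicate 2. TTR had 32, 380 and 14 reads in DPPJ and 3, 1, 2 and 3 reads in the adults. ITIH1 had 1.48, 17.0 and 1.14 CPM in DPPJ and 0.476 to 0.835 CPM in the adults. Without that library the log2 fold change of ITIH1 was 0.97 and it was no longer a DEG, and that of TTR was 3.18. BCAS1 and GPR37, both found in oligodendrocytes, also peaked in this library, at 473 and 40.1 CPM against 169 and 233 CPM and 5.97 and 7.72 CPM in the other juveniles. BCAS1 was still called without it, at a log2 fold change of 1.20, and GPR37 was not, at 0.77. Of the 15 genes, 13 were still DEGs without this library, as were 164 of all 347 DEGs.

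Among the genes lower in juveniles, HSD11B1 (ENSECAG00000019243) had the lowest P. It encodes the enzyme that regenerates active glucocorticoid from its inactive form inside cells. The DPPJ libraries held 15.6, 13.3 and 19.01 CPM, the adult DPs 49.4 and 63.3 CPM and the adult MHs 48.6 and 33.6 CPM. All juveniles lay below all adults. The mean was 16.0 ± 2.87 CPM (SD, n = 3) against 48.7 ± 12.1 CPM (SD, n = 4), a 3.05-fold higher level in adults with a log2 fold change of -1.61 (SE 0.23). The adjusted p of edgeR's quasi-likelihood fit was 0.375 and that of DESeq2 was 4.76e-07, with a range of 4.76e-07 to 0.977 over the alternatives.

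MLPH (ENSECAG00000024624) had the largest fold of this set. Its product, melanophilin, tethers secretory and pigment granules to a myosin motor through RAB27A. It was near the detection limit in juveniles, with 0.625, 0.810 and 0.640 CPM in DPPJ (11, 16 and 14 reads). The adults had 3.09 and 14.8 CPM in DPPA and 7.94 and 5.08 CPM in MHPA, an 11.1-fold higher level by the fit. Genes of secreted proteins were also in this set. FST, which encodes the activin-binding protein follistatin, a brake on FSHB, was 2.43-fold higher in adults, with 3.92, 4.56 and 3.52 CPM in DPPJ and 7.43 to 12.5 CPM in the adults. STC1, a secreted glycoprotein hormone that inhibits the IGF-releasing protease PAPP-A, had 33.0, 17.8 and 19.6 CPM in DPPJ and 38.1 to 111 CPM in the adults, a 3.08-fold higher level in adults.

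IGF2BP2 (ENSECAG00000020685), which binds the RNA of IGF2, had 1.99, 0.962 and 1.42 CPM in DPPJ. The adults had 4.57 and 8.56 CPM in DPPA and 4.38 and 3.14 CPM in MHPA, and it was 3.55-fold higher in adults. LGR5, a receptor for R-spondins, which strengthen WNT signals, had 7.67, 3.90 and 8.82 CPM in DPPJ and 14.9 to 21.3 CPM in the adults (2.56-fold). FRZB, a secreted WNT antagonist, had 8.81, 6.28 and 4.25 CPM in DPPJ and 12.5 to 17.4 CPM in the adults (2.37-fold). Both left a gap between the stages.

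The other genes of this set were signalling proteins and enzymes. The kinase SIK1, which is induced by cAMP, was 2.27-fold higher in adults and the cAMP-degrading PDE3A was 2.19-fold higher. The ephrin receptor EPHA4 was 2.73-fold higher, with MHPA replicate 2 far above the other adults at 36.1 CPM against 18.4 to 19.5 CPM. The thrombin receptor family member F2RL2 was 2.35-fold higher with a narrow spread, 2.89 ± 0.0609 CPM (SD, n = 3) in juveniles against 6.79 ± 0.558 CPM (SD, n = 4). F7, a coagulation factor, was 2.84-fold higher, with 26.1 and 29.0 CPM in DPPA and 54.3 and 47.0 CPM in MHPA. The matrix protein SMOC2 (2.72-fold), FAM129A (3.88-fold) and FRMPD3 (2.14-fold) completed the set. All 15 were still DEGs without DPPJ replicate 2 (164 of all 347 DEGs were), and 13 were DEGs whichever library was left out. The exceptions were PDE3A without DPPJ replicate 3 and FRMPD3 without DPPA replicate 3, both at -0.94. Of the 15 genes higher in juveniles, 10 were DEGs in each case, and besides SLC35D2, ITIH1 and GPR37 the exceptions included PEX11G (0.98) and the 5.8S ribosomal RNA (0.79) without DPPJ replicate 3. All 30 genes were chosen for low P and no overlap in the same libraries, so these counts are no further evidence for them.

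**Figure D2:**
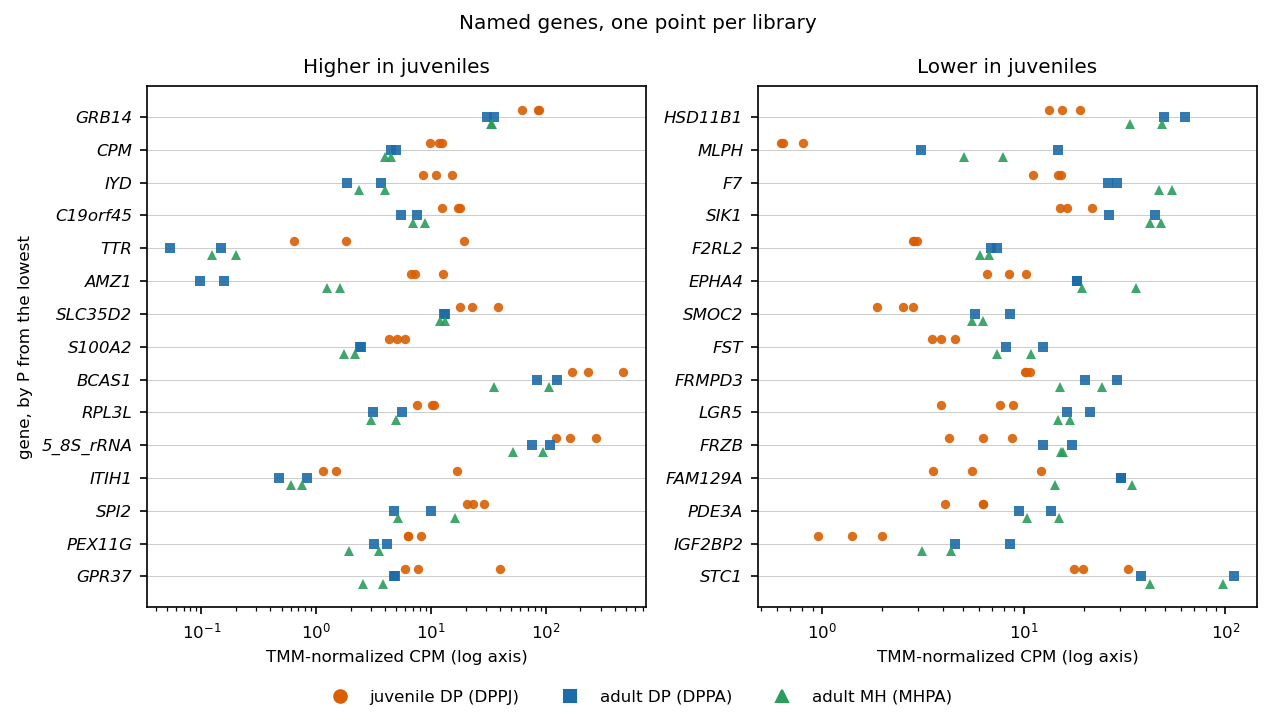
The TMM-normalized CPM of the 30 genes on log axes, with 1 point per library, 15 genes higher in juveniles on the left and 15 lower on the right. The juvenile and adult points do not overlap for any of the genes, as the rule required, and for TTR, ITIH1 and GPR37 1 juvenile library lies far to the right of the other juveniles.

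The 33 lists of pituitary, growth and cell type genes covered 585 tested genes, and 38 were DEGs (6.5%, against 2.37% of all tested genes), 18 higher and 20 lower in juveniles (1.07% and 1.3% of all tested genes). With breed as a term 32 list genes were DEGs, 14 of them among the 38. Without DPPJ replicate 2 there were also 32, 15 of them among the 38, with 8 higher and 24 lower. GINS2, MBP, STC1 and IGF2BP2 were the 4 list DEGs that were called whichever library was left out. No DEG was on 16 of the lists. The median log2 fold change over all tested genes was -0.01, against which the list medians can be read. The counts of DEGs within each list stand beside the shares of 1.07% higher and 1.3% lower over all tested genes.

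Among 20 tested transcription factors of the pituitary cell lineages, none was higher and TBX19 and OTX2 were lower (1.3% of all tested genes were). The list median was -0.19. TBX19, which directs POMC expression, had 80.7, 27.6 and 42.6 CPM in DPPJ. The adults had 106 and 84.8 CPM in DPPA and 298 and 112 CPM in MHPA, so MHPA replicate 2 stood far above the rest. It was 2.99-fold higher in adults, and not a DEG with breed as a term (log2 fold change -0.92) or without MHPA replicate 2. OTX2 had 12.7, 3.44 and 0.914 CPM in DPPJ and 13.0 to 29.4 CPM in the adults and was not a DEG with breed as a term either (-1.66), or without DPPJ replicate 2 or MHPA replicate 2 (-1.51 in both). NR0B1, a repressor in gonadotrophs, did not overlap between the stages, with 16.3, 11.5 and 16.2 CPM in DPPJ and 7.66 to 10.2 CPM in the adults, but at 0.78 its log2 fold change was below the threshold. POU1F1, which specifies the somatotroph, lactotroph and thyrotroph lineages, had 177, 150 and 195 CPM in DPPJ and 113 to 268 CPM in the adults, and its log2 fold change was 0.00 (SE 0.30). In bulk tissue, fewer cells of a type and less RNA per cell cannot be told apart.

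The 2 adult libraries with the most POMC also held the most PAX7, a melanotroph factor, and PCSK2, which cuts POMC further. PAX7 had 31.0 CPM in DPPA replicate 2 and 55.1 CPM in MHPA replicate 2, against 6.77 and 10.2 CPM in the other adults and 15.3, 7.29 and 6.85 CPM in DPPJ. PCSK2 had 437 and 417 CPM in the same 2 libraries, against 101 and 135 CPM in the other adults and 192, 65.8 and 89.8 CPM in DPPJ. Neither was a DEG (log2 fold changes of -1.40 and -1.23). Their part in the values of TBX19 and POMC was not tested.

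Of 22 tested receptors of hypothalamic factors and of hormone feedback, none was higher and 2 were lower (1.3% of all tested genes were). The list median was -0.02. VIPR2, a receptor of VIP and PACAP, had 5.00, 5.31 and 4.29 CPM in DPPJ and 6.63 to 14.1 CPM in the adults. Its log2 fold change of -1.09 was -0.99 with breed as a term, -0.97 without DPPA replicate 3 and -0.90 without MHPA replicate 2, and was not called in any of these. TRHR, the receptor of thyrotropin-releasing hormone, had 10.9, 5.57 and 8.18 CPM in DPPJ and 10.9, 11.2, 22.4 and 41.9 CPM in the adults. The adult MHs held the 2 highest values, and with breed as a term the log2 fold change was -0.43 in place of -1.39. GHRHR, the receptor through which the hypothalamus drives growth hormone release, had 125, 293 and 202 CPM in DPPJ and 164, 56.4, 102 and 100.5 CPM in the adults. Its log2 fold change of 0.96 (SE 0.36) lay just under the threshold.

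Regulated secretion and prohormone processing had 29 tested genes, with DOC2B higher and RAB3B and PCSK1 lower, beside 1.07% and 1.3% of all tested genes. The list median was 0.03. PCSK1, the convertase that makes the first cuts in POMC and other prohormones, had 179, 147 and 59.2 CPM in DPPJ and 173 to 358 CPM in the adults (2.21-fold higher in adults). RAB3B, a small GTPase of secretory granules, was 2.12-fold higher in adults. Without DPPJ replicate 3 neither was called, at -0.80 for PCSK1 and -0.87 for RAB3B, and RAB3B was also not called without DPPA replicate 2 (-0.94) or MHPA replicate 2 (-0.93). DOC2B, a calcium sensor of vesicle fusion, had 2.05, 9.62 and 4.61 CPM in DPPJ and 1.43 to 2.26 CPM in the adults, and it was not called without DPPJ replicate 2 (log2 fold change 0.82). SCGN, the calcium-binding protein secretagogin, had 71.5, 53.1 and 69.6 CPM in DPPJ and 24.8 to 47.6 CPM in the adults, with no overlap and a log2 fold change of 0.81 (1.18 and a DEG with breed as a term). CHGA, a granule core protein, was lower by 1.60 on the log2 scale with breed as a term and a DEG there, with 11282 and 20553 CPM in DPPA and 4762 to 6227 CPM in DPPJ. The adult MHs had 3525 and 5796 CPM, within reach of the juveniles, and over all adults it was not called.

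In the IGF axis 3 of 13 tested genes were lower (1.3% of all tested genes were) and none was higher, with a median of -0.23. They were STC1, described above, its relative STC2 and IGFBP3, the main carrier of IGFs in blood. STC1 was the one of them that was also a DEG with breed as a term and without DPPJ replicate 2. Of the imprinted and fetal growth genes, IGF2BP2 was the DEG among 15, and the median was -0.35. PEG10, NNAT and PEG3, all expressed from the paternal copy, were lower in every juvenile than in every adult without passing the fold threshold. PEG10 had 92.7, 58.8 and 48.4 CPM in DPPJ and 97.6 to 125 CPM in the adults. NNAT had 2766 to 4943 CPM in DPPJ and 5261 to 6769 CPM in the adults, and PEG3 had 1267 to 1332 and 1425 to 1797 CPM. With IGF2BP2, 4 of the 15 were lower with no overlap, beside 3.96% of all tested genes.

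In the retinoic acid list RBP4, a retinol carrier, was higher and the retinoic acid-making enzyme ALDH1A3 was lower among 18 tested genes. Of all tested genes, 1.07% were higher and 1.3% lower. The list median was 0.17. RBP4 had 9.60, 21.8 and 21.0 CPM in DPPJ and 3.86 to 10.6 CPM in the adults. Its log2 fold change of 1.02 was 0.84 without DPPJ replicate 2, 0.87 without DPPJ replicate 3 and 0.78 without DPPA replicate 3, and was not called in any of these. ALDH1A3 had 0.640 to 1.16 CPM in DPPJ, 1.03 and 1.53 CPM in DPPA and 4.63 and 3.68 CPM in MHPA, so its difference lay mostly in the MH adults, and it was not a DEG with breed as a term (-0.56). Among 17 progenitor and folliculostellate markers S100B was higher and PROM1 was lower. Neither was called without DPPJ replicate 2 or with breed as a term. The list median was -0.30, while the summed level was higher in each juvenile, at 1858 to 2424 CPM against 1222 to 1804 CPM in the adults. CD9 had 176, 169 and 147 CPM in DPPJ and 117 to 127 CPM in the adults, with no overlap and a log2 fold change of 0.42 (SE 0.12).

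Of 73 tested cell cycle genes, 2 were higher (1.07% of all tested genes were) and none was lower. They were GINS2, a part of the replication helicase, and STMN1, a regulator of microtubules. The median was 0.11, and -0.09 with breed as a term. GINS2 had 2.78, 2.48 and 2.10 CPM in DPPJ and 0.813 to 1.32 CPM in the adults. STMN1 had 317 CPM in DPPJ replicate 2 and 68.5 and 109 CPM in the other juveniles, and its log2 fold change fell from 1.15 to 0.26 without that library.

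The nuclear genes of oxidative phosphorylation differed little but mostly in 1 direction. Of 53 tested, none was a DEG, 39 had a positive log2 fold change (47.8% of all tested genes did) and the median was 0.16. Their summed level overlapped between the stages, with 7312, 6801 and 5731 CPM in DPPJ and 5528 to 6990 CPM in the adults. The stages did not overlap for 8 of them, all higher in juveniles, beside 3.96% of all tested genes. NDUFS3, a subunit of complex I, had 45.5, 40.6 and 47.1 CPM in DPPJ and 26.5 to 32.0 CPM in the adults, with a log2 fold change of 0.63 (SE 0.13). ATP5I, a subunit of ATP synthase, had 47.2, 79.0 and 73.0 CPM in DPPJ and 23.9 to 44.5 CPM in the adults (0.92, SE 0.23). The 13 genes of the mitochondrial genome had a median of -0.11 and no DEG. The median of the nuclear genes was positive in each of the 20 alternatives, between 0.10 and 0.26. These alternatives share libraries with the main fit, so this is no separate evidence.

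Immediate early genes respond within minutes to stimulation. Of 22 tested, 20 had a negative log2 fold change (52.2% of all tested genes did), with a median of -0.65. An unadjusted P under 0.05 was reached by 5 of them (7.43% of all tested genes). NR4A3 was a DEG, lower in juveniles (1.3% of all tested genes were). With breed as a term EGR1, NR4A2 and NR4A3 were lower, beside 1.76% of all tested genes. NR4A3, an orphan nuclear receptor, had 1.70, 1.21 and 1.87 CPM in DPPJ and 7.17, 5.23, 3.31 and 1.67 CPM in the adults. It was not called without DPPJ replicate 2 (log2 fold change -1.28) or DPPA replicate 2 (-1.09). FOSL2, a partner in AP-1, had 8.13, 15.5 and 10.1 CPM in DPPJ and 16.7 to 25.4 CPM in the adults, with no overlap and a log2 fold change of -0.90. The summed level of the list overlapped between the stages, with 589, 801 and 597 CPM in DPPJ and 674 to 1088 CPM in the adults. The list median was negative in each of the 20 alternatives, from -0.87 to -0.17, which share libraries with the main fit.

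**Figure D3:**
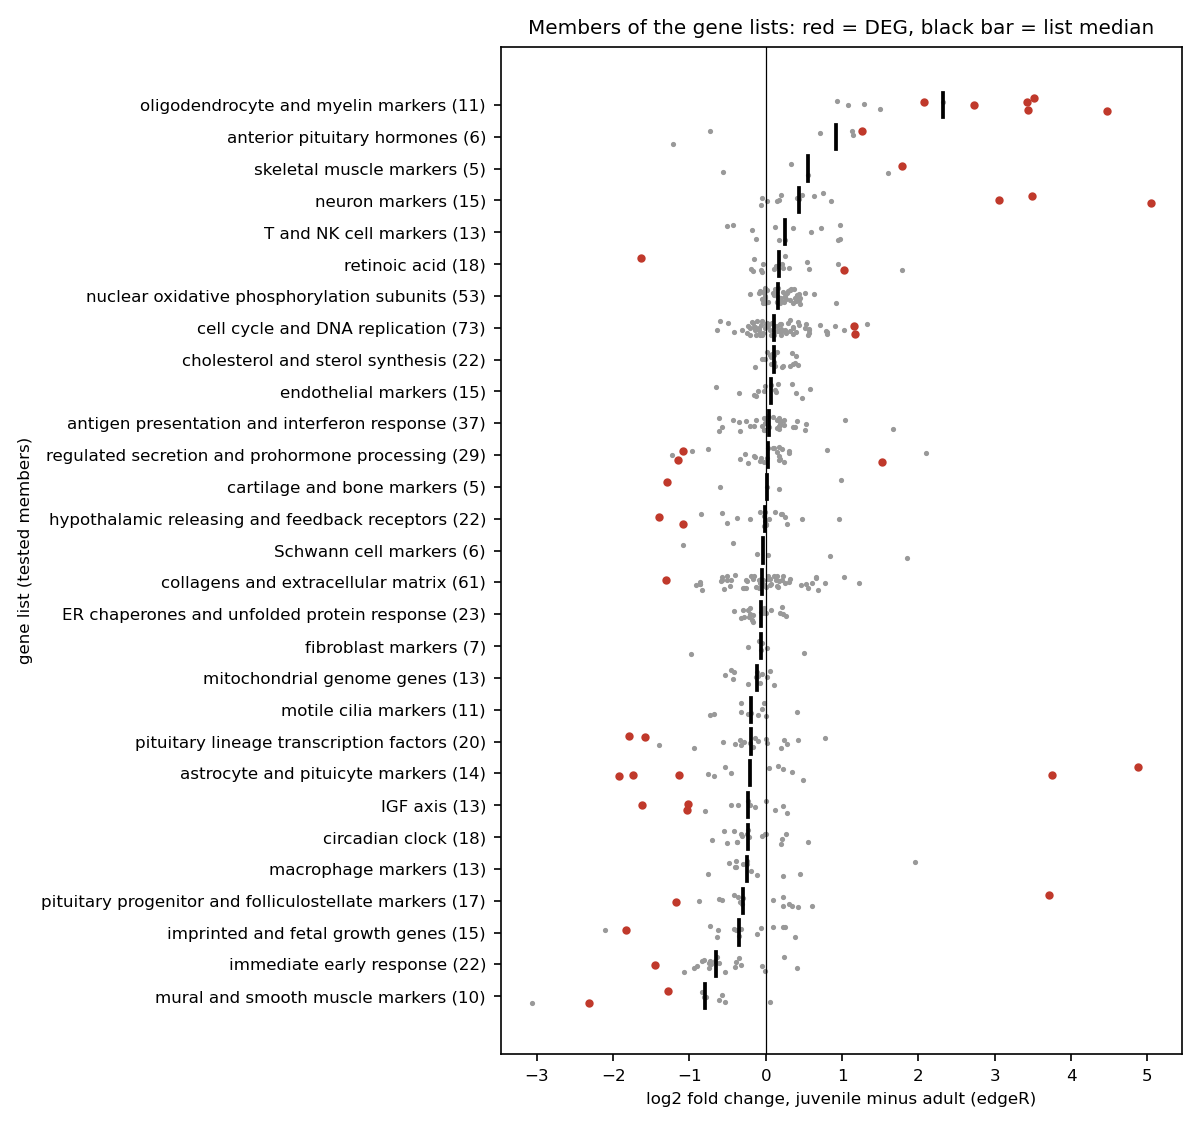
The log2 fold change (juvenile minus adult) of the tested members of each list with at least 5 of them, with DEGs in red and a black bar at the list median. The myelin list stands furthest to the right, with a median of 2.32 that was 0.96 without DPPJ replicate 2, and most other medians lie near 0.

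Markers of myelin, and some of those of glia and neurons, set DPPJ replicate 2 apart from the other 6 libraries. Of 11 tested markers of oligodendrocytes, the cells that make central myelin, 6 were higher in juveniles (1.07% of all tested genes were) and none was lower. Those higher were MBP, MOBP, MAG, MOG, ERMN and UGT8, and the list median was 2.32. The summed level of the 11 markers was 1726 CPM in DPPJ replicate 2, 168 and 433 CPM in the other juveniles and 112 to 225 CPM in the adults. MBP (ENSECAG00000010961), a main protein of myelin, had 88.5, 1161 and 282 CPM in DPPJ and 58.6 to 109 CPM in the adults. Without DPPJ replicate 2 the log2 fold change of MBP was 1.27 and it was the one myelin gene still called. With breed as a term MBP and CNP were called.

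Among 14 markers of astrocytes and of pituicytes, the glia of the posterior lobe, AQP4 and GFAP were higher and TBX3, COL25A1 and RAX were lower. Of all tested genes, 1.07% were higher and 1.3% lower. The list median was -0.21, and -0.56 with breed as a term, where AQP4, TBX3, COL25A1 and RAX were called and GFAP was not. GFAP had 20.5, 2510.1 and 127 CPM in DPPJ and 6.77, 104, 4.94 and 3.95 CPM in the adults. AQP4, a water channel of astrocytes, had 24.4, 491 and 36.2 CPM in DPPJ and 7.94 to 28.9 CPM in the adults. Without DPPJ replicate 2 neither was called. TBX3, RAX and COL25A1 ran the other way, and in TBX3 each juvenile lay below each adult (11.3 to 13.8 CPM against 15.8 to 50.3 CPM). TBX3 alone of this list was called without DPPJ replicate 2. The summed level of the list was 2482, 5625 and 1449 CPM in DPPJ and 1885 to 4235 CPM in the adults.

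Of 15 neuron markers AVP, which encodes vasopressin, GAD1 and GAD2 were higher, beside 1.07% of all tested genes. The summed level of the 15 markers was 1404, 1966 and 1468 CPM in DPPJ and 913 to 1645 CPM in the adults. AVP had 4.03, 235 and 0.137 CPM in DPPJ and 1.34 to 3.44 CPM in the adults. Without DPPJ replicate 2 the log2 fold change of AVP was -0.20, that of GAD1 -0.22 and that of GAD2 -0.20, so their direction rested on this library. Among 10 mural and smooth muscle markers MYH11 and DES were lower, and both peaked in MHPA replicate 3, at 187 and 123 CPM. The summed level of that list was 676 CPM in this library and 110 to 237 CPM in the others, and neither gene was a DEG with breed as a term.

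TNNC2 was higher among 5 skeletal muscle markers, RUNX2 was lower among 5 cartilage and bone markers, and MFAP4 was lower among 61 collagens and other matrix genes, none of the 3 being a DEG with breed as a term. No DEG was found among the tested markers of endothelium (15 tested), macrophages (13), T and NK cells (13), Schwann cells (6), fibroblasts (7), motile cilia (11), B and plasma cells (2), neutrophils (3), adipocytes (2) or red cells (1). The same held for antigen presentation and interferon response (37), ER chaperones (23), the circadian clock (18) and sterol synthesis (22). How far the share of nervous tissue or vessel wall in each piece bears on the other values was not tested.

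**Figure D4:**
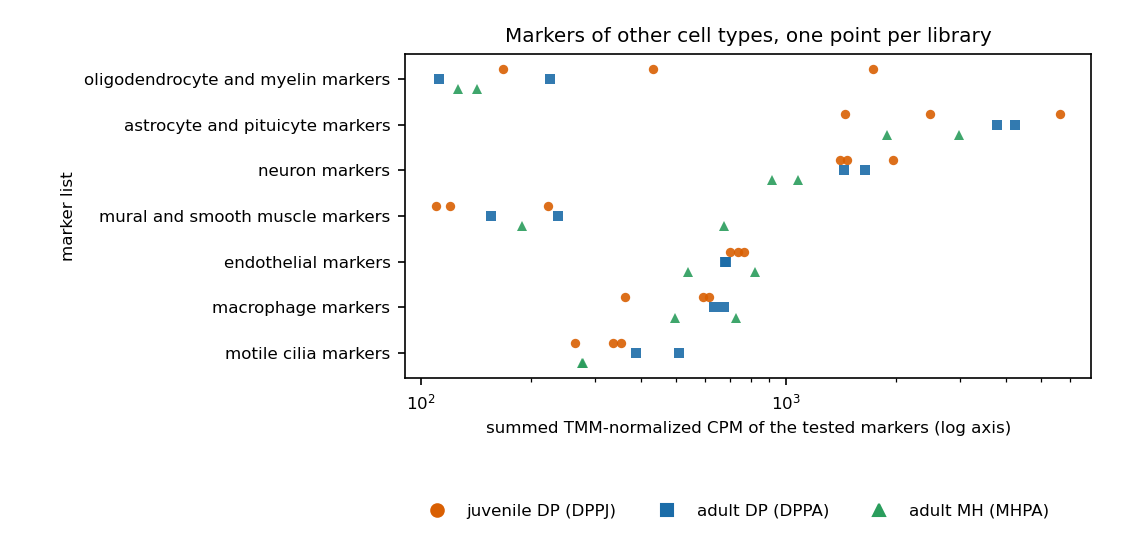
The summed TMM-normalized CPM of the tested markers of 7 other cell types on a log axis, with 1 point per library. The juvenile library at 1726 CPM of myelin markers and the adult MH library at 676 CPM of mural markers lie apart from the rest.

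The 5 hormone-poor pituitary libraries, 3 MHPJ against DPPA replicate 1 and MHPA replicate 1, were set beside these results with no test, scaled together with the other 7. Their juveniles were all MHs, and the pieces were unlike one another. AVP had 1206 CPM in DPPA replicate 1 and 0 to 0.460 CPM in the other hormone-poor libraries. TTR had 10726 CPM in MHPA replicate 1 and 0.186 to 14.9 CPM in the others. MBP ran from 1885 to 10379 CPM. How far such differences bear on the directions below was not tested. Of the 55 genes that met the conditions for the named genes, 23 (41.8%) had the same direction there, beside 52.7% of all tested genes. In 6 (10.9%) the hormone-poor stages also did not overlap in that direction, beside 10.4% of all tested genes. GRB14 was higher in the hormone-poor juveniles as well, with 33.0, 296 and 40.2 CPM against 25.2 and 27.8 CPM. The highest value was of MHPJ replicate 2, and the other juveniles lay close to the adults. That library also differed in tissue markers from MHPJ replicates 1 and 3, though not in 1 direction among glial genes. It had 55.3 CPM of GFAP against 2377 and 1932 CPM, but 3708 CPM of S100B against 905 and 775 CPM. MBP was at 2949 CPM against 3468 and 2701 CPM. The smooth muscle gene MYH11 had 581 CPM against 31.8 and 70.8 CPM. HSD11B1 was low in both stages there, at 1.74 to 4.37 CPM in juveniles and 2.83 and 4.66 CPM in adults. LGR5 and FRZB ran the other way, with 11.5 to 40.3 CPM in the hormone-poor juveniles against 4.75 and 8.53 CPM in the adults for LGR5, and 13.0 to 60.7 CPM against 4.60 and 11.02 CPM for FRZB.

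**Figure D5:**
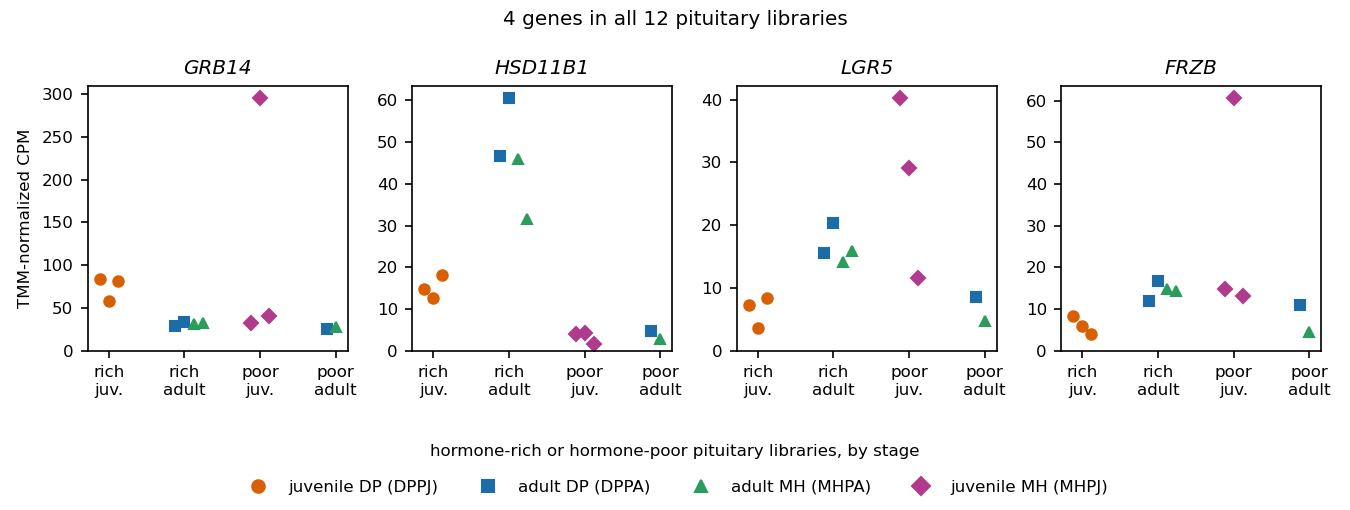
The TMM-normalized CPM of GRB14, HSD11B1, LGR5 and FRZB in all 12 pituitary libraries, scaled together and grouped as hormone-rich or hormone-poor and by stage. GRB14 is higher in juveniles in both kinds of library, in the hormone-poor ones largely through 1 library, MHPJ replicate 2. LGR5 and FRZB are lower in hormone-rich and higher in hormone-poor juveniles. The 4 genes were chosen for display after their values were seen.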

How the data were processed

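RNA-seq of the pituitary and long bone of 12 female horses gave 24 libraries, of which 7 were used for the tests and the other 5 pituitary libraries for the comparison side by side and for fits without the selection. The libraries were directional and depleted of ribosomal RNA. The authors removed short reads with Btrim and mapped the rest to the horse genome EquCab3. The methods also name Salmon, and the processing notes name TopHat2, bcl2fastq and edgeR. The gene counter and its strand setting are not given in the sources used here, so reads of overlapping or antisense genes may be shared. The deposited counts are whole reads on 24232 genes without normalization, and the authors also deposited RPKM values of 24248 genes, which account for the length of each gene and the size of each library. Gene symbols are those of the file, which lists none for 8077 genes. CGA is listed as CG, and LHB was found by its description. Of the 347 DEGs, 298 have a symbol. No coordinates or sequences are given, since the reference table at hand is of another assembly.

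The main test was edgeR (4.0.16, R 4.3.3) quasi-likelihood on the counts of the 7 libraries, with TMM and filterByExpr at a minimum count of 10, which left 5 residual degrees of freedom (4 with breed). Adjusted p-values are Benjamini-Hochberg over all 14611 genes. SEs of the log2 fold change were derived from the test, as its absolute value over the square root of the quasi-likelihood F statistic. RPKM were used for levels between genes and with limma (3.58.1) on log2(RPKM + 1) and log2(RPKM + 0.1), and DESeq2 (1.42.0) was an alternative. A permutation test of 3 against 4 libraries cannot go below a two-sided p of 0.0571 and was not used. The script was tested on simulated counts with known changes. The replicates are separate animals. P-values are set against the spread between animals within each stage. In the main fit the adult DPs and MHs form 1 group, so this spread includes breed differences. Breed and stage are separable only through the adult DPs. The members and lists were chosen with earlier results of these data known. Genes named are the 15 per direction by the conditions in the report, the hormones, and the list members called as DEGs. A few others were chosen after their values were seen, among them NR0B1, POU1F1, PAX7, PCSK2, GHRHR, SCGN, CHGA, CNP, PEG10, NNAT, PEG3, CD9, NDUFS3, ATP5I, FOSL2, EGR1 and NR4A2. A list member is not reported here and is left out of the counts of its list.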

Additional observations from a re-analysis of the deposited data

Results flagged for a closer look

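In each of 71 named genes and hormones, the highest or lowest of the 4 adult libraries was compared with the gap to its nearest neighbour, and in 11 of them the gap exceeded Dixon's critical share of the group's range. Chance flags about 1 in 20 groups of 4 values from 1 normal population. That rate need not hold here, for CPM without logs, from adults of 2 breeds, in genes mostly chosen as DEGs. Genes of 1 cell type are also not independent. DPPA replicate 3 was the highest adult for 6 glial genes, with 28.9 CPM of AQP4, 104 CPM of GFAP, 8.62 CPM of MOBP, 7.82 CPM of MAG, 4.44 CPM of MOG and 12.001 CPM of ERMN, and it was the lowest for RBP4, at 3.86 CPM. MHPA replicate 2 was the highest adult for TBX19 (298 CPM) and EPHA4 (36.1 CPM). MHPA replicate 3 was the highest adult for DES (123 CPM) and PRL (13191 CPM). The 3 juvenile libraries are too few for this comparison, although DPPJ replicate 2 was the highest juvenile for each of the 6 glial genes.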

How the results depend on the processing

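Each count of DEGs and each log2 fold change of the 71 named genes and hormones was recomputed under 20 alternatives. Of 1418 such gene values, 1075 kept their direction and side of the threshold, 284 kept the direction but were no longer called, 13 were newly called (all of hormone genes) and 46 changed direction. The median log2 fold change over all genes stayed between -0.03 and 0.02. The counts were most affected by the choice of libraries, the filter and the pseudocount. With only the MH adults there were 288 genes higher and 290.0 lower in juveniles (578 DEGs, 14 with an adjusted p under 0.05). Without the selection by GH, the DPs gave 383 lower genes, and all 12 pituitary libraries with breed as a term gave 50.0 higher and 84 lower (134 DEGs). Without the low-count filter, 401 were higher and 313 lower (714 DEGs). With limma on log2(RPKM + 1), 40.0 were higher and 83 lower (123 DEGs). An adjusted p under 0.05 was reached by 54 genes with DESeq2 and 36 with edgeR's exact test. Leaving out 1 library in turn gave 91 to 248 genes higher, 112 to 269 lower, 251 to 517 DEGs and 0 to 2 genes with an adjusted p under 0.05 (2 without DPPA replicate 2). The cause of these moves was not tested. Other genes or libraries entered some of these fits, while limma, DESeq2 and the exact test used the same 7 libraries and 14611 genes as the main test.

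The replicate numbers are shared by different animals. The correlations of same-numbered libraries' deviations from their group means ran from -0.249 to 0.233. In the adult groups of 2 libraries these deviations mirror each other, so the correlations cannot tell whether the numbers mark a shared batch. The replicate block gave 455 DEGs (195 higher and 260.0 lower), and TSHB changed direction under it, to 0.15.

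In the DPs without the selection by GH, the log2 fold changes that changed direction were those of MBP (-0.45), BCAS1 (-0.46), AQP4 (-1.54), GPR37 (-0.87), UGT8 (-0.56), AVP (-2.37), DOC2B (-1.31), S100B (-1.17), GFAP (-1.56), TRHR (0.11), MOBP (-0.78), GAD2 (-3.54), MAG (-1.75), GAD1 (-3.85), MOG (-1.72), STMN1 (-1.64) and ERMN (-1.89). In all 12 pituitary libraries they were those of IYD (-0.37), TTR (-4.12), LGR5 (0.011), FRZB (0.14), MBP (-0.34), BCAS1 (-0.45), 5_8S_rRNA (-0.071), AQP4 (-0.078), SPI2 (-0.51), GPR37 (-0.29), AVP (-3.04), GFAP (-0.90), MOBP (-0.77), FSHB (-2.86), ALDH1A3 (1.22), RBP4 (-1.07), MAG (-0.73), MOG (-0.75), RUNX2 (0.26), STC2 (1.05), STMN1 (-0.19), ERMN (-1.37), LHB (-0.78), CGA (-4.81) and PRL (-4.75). With 1 library left out in turn, AVP ran from -0.20 to 5.63, GAD2 from -0.20 to 3.81 and GAD1 from -0.22 to 4.05, all lowest without DPPJ replicate 2. With 3 and 4 libraries a stage, small changes of genes with few reads were not detectable.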
